A study of Homo sapiens with 4 samples.

Results

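The MYC and PVT1 locus is taken here as the 4 Mb of chromosome 8 that end at position 130000000 (hg38), and every accessible region called in it was taken as a member. The 4 peak lists held 393 summit rows there out of 166326, and merging peaks that overlapped by at least 1 bp gave 118 regions out of 53572 in the genome. The regions were chosen by position and not by any measured value. The assay was ATAC-seq, which reads out open chromatin from the places where Tn5 transposase can insert adapters. The cells were 786-O, an established line from a clear cell renal carcinoma known to have lost VHL function, and this 1 line served for every library. For 24 h the cells received DMSO, the vehicle control, or ACSS2i at 5 µM, a compound given under that name alone. ACSS2 itself is the enzyme that makes acetyl-CoA from acetate, and the question of the experiment was which accessible regions differ after the compound. There were 2 libraries per group, 4 in all. No label says that they came from separate cultures, so tests across them measure only the spread between these libraries, which may be technical.

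MYC encodes a transcription factor that drives growth and proliferation genes by binding DNA as a dimer with MAX. It lies almost alone in a long stretch with few protein-coding genes, and its transcription is known to depend on enhancers scattered over great distances on both sides, with different sets in use in different tissues. PVT1 is a long noncoding RNA gene that starts downstream of MYC, runs in the same direction and hosts several microRNAs. Its body is known to contain enhancers, and its promoter has been described as a competitor of the MYC promoter for them. Loss of VHL leaves hypoxia-inducible factors active in such cells, and MYC is among the genes whose output these factors are known to influence.

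In the RefSeq table, MYC spans 127735434 to 127742951 and PVT1 spans 127794524 to 128101256, which is 307 kb. The gene spans are 51.6 kb apart. Positions below are distances of the centre of a region from the lower end of MYC, the end with the smaller coordinate, where MYC transcription begins. Positive distances point towards PVT1. For each peak, the fold is the authors' own ratio of the summit over the local background of the same library. The percentile is the rank of the authors' −log10 q (column 9 of the lists) among all peaks of the same library, with 100 the strongest. A pileup is the number of fragments covering the summit, recovered from the deposited values.

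The lists differed in length, and this touches every count and percentile below. DMSO replicates 1 and 2 held 34696 and 50294 peaks, against 16400 and 22044 for ACSS2i replicates 1 and 2, and the genome background coverage was 2.06, 1.75, 2.32 and 3.16 fragments in the same order. The 13306 regions of the genome in all 4 libraries make up most of each ACSS2i list but a smaller part of each DMSO list. Their percentiles are thus in part lower in ACSS2i through list length, and a lower percentile alone does not show lower accessibility. Read totals were not analysed here. Epithelial and mesenchymal genes typical of the line, PAX8, KRT8, KRT18, VIM, CDH2 and CDH6, each had a peak within 1000 bp of a gene end in both DMSO libraries. KRT8, KRT18 and VIM had one in both ACSS2i libraries as well, while PAX8, CDH2 and CDH6 had one in ACSS2i replicate 2 and none in ACSS2i replicate 1. No endothelial marker of 4 and no immune marker of 5 had one in both DMSO libraries. CD14 and SPI1 had one in DMSO replicate 2 alone. Of 3 fibroblast genes COL1A1 had one in all 4 libraries and PDGFRB in the DMSO libraries alone, and of 2 neuronal genes SNAP25 had one in the DMSO libraries alone. The part of other cells in the results was not tested.

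Fewer peaks were called in the locus after ACSS2i, while its strongest sites, in the body of PVT1 and just past it, were called in every library. It held 78 and 110 peaks in the DMSO libraries and 42 and 60 in the ACSS2i libraries, or 94 ± 22.6 against 51 ± 12.7 (SD, n = 2 per group), which makes the ratio 0.543. The counts of the groups did not overlap (two-sided exact permutation p = 0.333, and 2 against 2 libraries can give no smaller value). As a share of the library's own peaks, the locus took 0.225% (exact 95% interval 0.178 to 0.280%) and 0.219% (0.180 to 0.264%) in DMSO. It took 0.256% (0.185 to 0.346%) and 0.272% (0.208 to 0.350%) in ACSS2i. These intervals cover counting error only and overlap one another. The share was higher in both ACSS2i libraries (ratio 1.19, exact permutation p = 0.333), and with every list limited to its 16400 strongest peaks the ratio was 0.946, with 47 and 45 peaks in DMSO and 42 and 45 in ACSS2i.

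**Figure D1:**
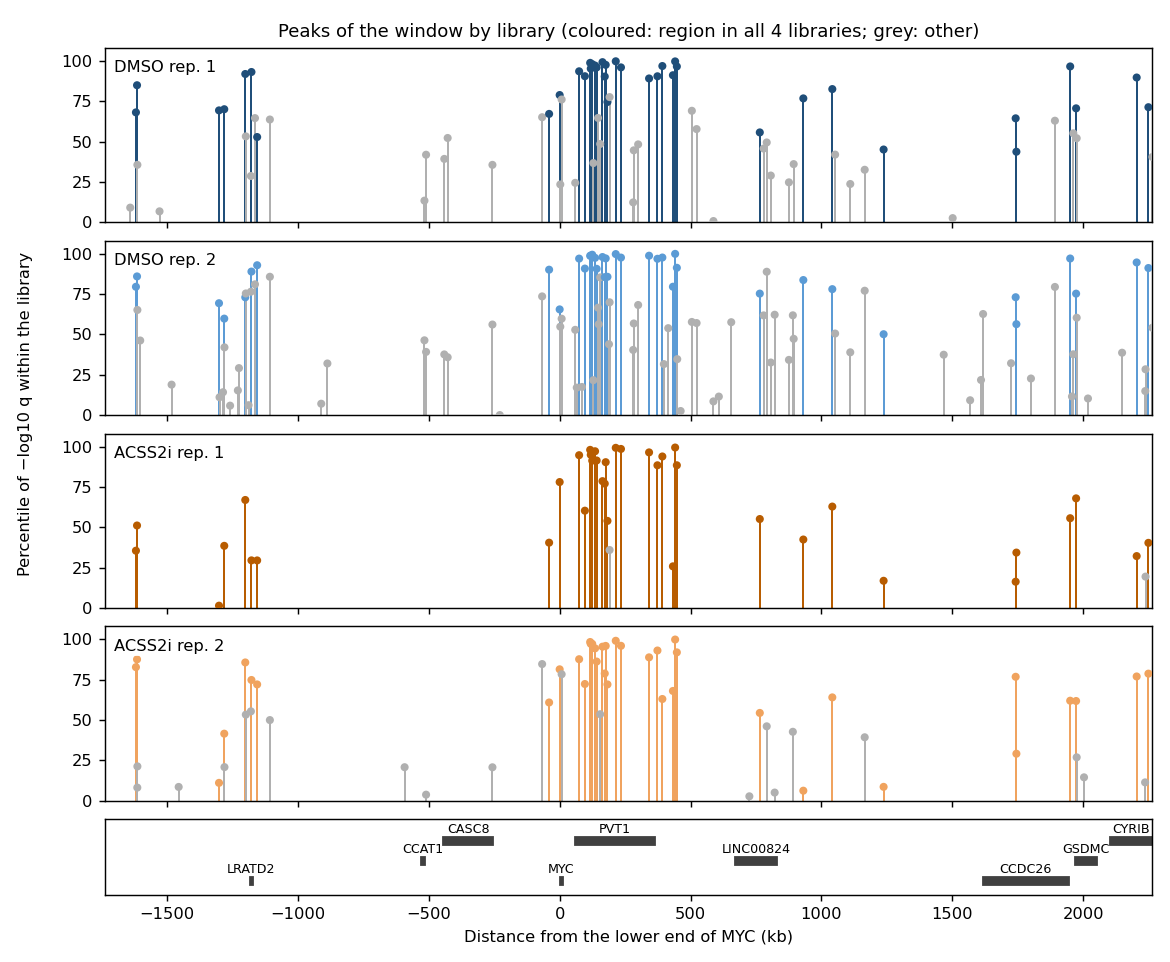
Each stem is the strongest peak of a region in 1 library, placed by its distance from the lower end of MYC in kb (x axis) and its percentile of −log10 q within that library (y axis). Coloured stems are the 38 regions with a peak in all 4 libraries, grey stems are the others, and the bars below mark gene spans (short genes are drawn at a minimum width). The densest block of high coloured stems lies inside PVT1 and just past it.

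Of the 118 regions, 74 were called in both DMSO libraries. Of these 74, 38 (51.4%) were present in all 4 libraries, against 42.2% of the 31506 such regions of the genome. Another 23 (31.1%) had no peak in either ACSS2i library, against 33.5% in the genome, and are called DMSO-only here. The remaining 13 were called in 1 ACSS2i library. The share of DMSO-only regions is thus close to that of the genome, but these shares are not matched for strength. The median of the lower DMSO percentile of a region was 64.1 in the locus against 51.4 in the genome. Counts by band of that percentile are given further below. All but 1 of the 38 were distal, that is, more than 1000 bp from either end of MYC and of PVT1: 8 lay upstream of MYC, 14 inside PVT1 and 15 beyond PVT1, and the remaining one was the MYC start. On the rest of chromosome 8, 559 of 1356 regions (41.2%) were in all 4 libraries and 476 (35.1%) were DMSO-only. Leaving out DMSO replicate 1 moved the DMSO-only count of the locus to 55, and leaving out ACSS2i replicate 2 moved it to 35. It was 2 of 40 (5%, against 6.41% in the genome) with lists of equal length.

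In the opposite direction, 0 of the 38 regions called in both ACSS2i libraries were called in neither DMSO library, a count that leaves room for a share of up to 7.89%. In the genome the share was 0.0897%. Another 6 regions of the locus were called in ACSS2i replicate 2 alone, all with low values: folds from 2.87 to 3.56 and percentiles from 2.67 to 20.7. Without ACSS2i replicate 1, these 6 are the regions with an ACSS2i and no DMSO peak. A further 31 regions were called in DMSO replicate 2 alone, the longest list, and 3 in DMSO replicate 1 alone.

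The start of MYC was accessible in all 4 libraries. The region (127734147 to 127737035) covers the lower end of the gene, where its major promoters lie. Its folds were 4.99 and 4.77 in the DMSO libraries against 4.72 and 4.61 in the ACSS2i libraries, replicate 1 first here and below. All 4 folds lay close together, with both ACSS2i folds just below both DMSO folds. The percentiles were 78.9 and 65.5 in DMSO against 78.0 and 81.4 in ACSS2i, or 72.2 ± 9.47 against 79.7 ± 2.41 (SD, n = 2 per group). These groups overlap, and the difference was within the spread of the libraries (two-sided exact permutation p = 0.667). Ranked by fold in place of −log10 q, the MYC start stood at percentiles of 43.3 and 27.1 in DMSO against 52.1 and 59.2 in ACSS2i. This was a difference of 20.5 with no overlap (exact permutation p = 0.333). The folds themselves ran the other way, so this rank reflects the rest of each list. The median fold of all peaks was 5.35 and 6.65 in DMSO against 4.65 and 4.30 in ACSS2i. How many genome regions separate in this way was not counted.

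The number of fragments at the MYC start differed more than the fold. The summit pileup was 55 and 77 fragments in DMSO against 34 and 45 in ACSS2i, or 66 ± 15.6 against 39.5 ± 7.78 (SD, n = 2 per group, exact permutation p = 0.333). The local background moved with it: it was 4.96 and 8.78 times the genome background in DMSO and 2.77 and 2.84 times in ACSS2i. The fold divides the summit by this local level, so a nearly constant fold stands beside a summit that was lower in both ACSS2i libraries. Set against the genome background, the summit reached 26.7 and 44.1 times in DMSO against 14.7 and 14.2 times in ACSS2i. The gap was general. In 99.2% of the 13306 regions of the genome in all 4 libraries, and in 38 of 38 of the locus, both ACSS2i pileups over background lay below both DMSO values.

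The summits within the MYC start lay at similar places in the 4 libraries. Each library had a summit between 317 and 402 bp inside the gene: at 358 and 317 bp in DMSO and at 331 and 402 bp in ACSS2i. Each also had a summit further in, at 716 bp in DMSO replicate 1, at position 127736220 in DMSO replicate 2, at 672 bp in ACSS2i replicate 1 and at 618 and 756 bp in ACSS2i replicate 2. A summit just before the gene lay at −131 and −66 bp in DMSO and −85 bp in ACSS2i replicate 1, and none was called there in ACSS2i replicate 2. The order of strength between these summits was not the same in every library, since the strongest was the inner one in DMSO replicate 2 and lay between 331 and 402 bp in the other 3.

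Beyond the start, a region inside MYC 2.58 kb from that end (127737316 to 127738718) was called in the DMSO libraries alone, with folds of 2.87 and 4.07 and percentiles of 23.5 and 54.8. A region at the upper end of MYC, the 3′ end of the gene (127742740 to 127743603), had folds of 6.10 and 6.28 in DMSO and 5.18 in ACSS2i replicate 2 and no peak in ACSS2i replicate 1. Its percentile was 76.1 and 59.7 in DMSO and 78.3 in ACSS2i replicate 2, close to the 81.4 of the MYC start in that library. The 49.6 kb between MYC and PVT1, leaving out 1000 bp beside each gene, held 0 regions in any library.

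The start of PVT1 was called after DMSO alone, with a modest peak. The region at the lower end of PVT1 (127794065 to 127796081), which also covers the microRNA gene MIR1204, was called in each DMSO library and in neither ACSS2i library. Its folds were 3.45 and 5.63, its percentiles 24.5 and 52.9, and its pileups 23 and 43 fragments. The peak was thus weak in DMSO replicate 1 and of middle rank in DMSO replicate 2. Of the 3242 regions of the genome whose lower DMSO percentile fell between 20 and 30, as here, 65.3% were DMSO-only. The strongest summit of DMSO replicate 2 lay 11 bp before the gene, and that of DMSO replicate 1 lay 666 bp inside it, close to a weaker summit of DMSO replicate 2 at 639 bp. With a summit required within 250 bp of the strongest one of the region, 25% of libraries had the region, DMSO replicate 2 alone. Presence in both DMSO libraries thus depends on merging peaks by overlap. With lists of equal length, the PVT1 start was not among the 16400 strongest peaks of any library, so the pattern could not be seen there.

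**Figure D2:**
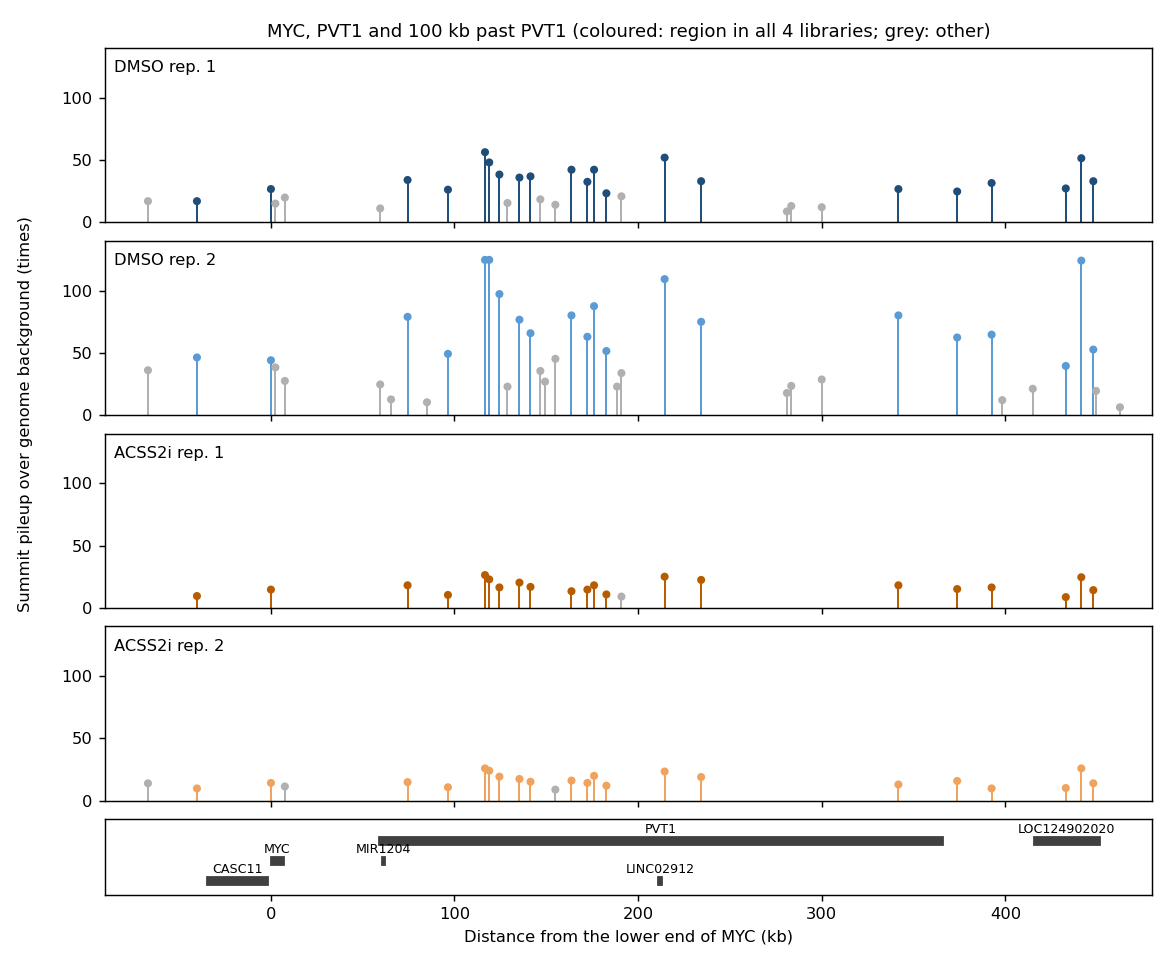
Stems show the summit pileup as a multiple of the genome background coverage of the library (y axis) by distance from the lower end of MYC in kb (x axis), 1 panel per library, with gene spans below (short genes at a minimum width). Coloured stems are regions in all 4 libraries. The stems inside PVT1 and the one at 441 kb reach 125 times in DMSO replicate 2 and at most 26.3 times in the ACSS2i libraries, while the grey stem at the start of PVT1 appears in the DMSO panels alone.

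The body of PVT1 held the main block of sites of the locus called in all 4 libraries. With 1000 bp added at each end, the span contained 26 regions, or 8.42 per 100 kb against 2.95 per 100 kb over the whole window. Of its 22 regions in both DMSO libraries, 14 (63.6%) were in all 4 libraries, against 42.2% in the genome. Another 6 (27.3%) were DMSO-only, against 33.5%, and 2 were called in 1 ACSS2i library. The regions were strong: 11 of the 14 had a lower DMSO percentile above 90, where 99.2% of genome regions were in all 4. Without single libraries, the count of PVT1 regions present in all that remained was 14 or 15. It was 14 both at −log10 q of at least 5 and with lists of equal length. The DMSO-only count within PVT1 was 10 without DMSO replicate 1 and 0 with lists of equal length. Among the 990 long noncoding RNA genes of the table with a span of at least 100 kb, none had more regions in all 4 libraries than PVT1. LINC-PINT followed with 11, and 686 had 0. Per 100 kb of span, PVT1 had 4.56 such regions, and LINC-PINT (4.73) and ERRFI1-DT (4.97) were denser. No test was made of this ranking.

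The PVT1 regions were also strong. The 14 regions in all 4 libraries had median percentiles of 96.0 and 97.5 in DMSO against 93.0 and 94.9 in ACSS2i, or 96.8 ± 1.08 against 94.0 ± 1.35 (SD, n = 2 per group, exact permutation p = 0.333). Over all 13306 such regions of the genome the medians were 79.1 and 85.4 in DMSO against 57.8 and 67.5 in ACSS2i. The median fold in PVT1 was 6.96 and 9.99 in DMSO against 5.96 and 5.62 in ACSS2i, and the median pileup was 75 and 139 against 42 and 53 fragments. Both ACSS2i medians lay below both DMSO medians on each scale, and the same held over the genome. There the median fold was 6.90 and 9.81 in DMSO against 4.90 and 4.88 in ACSS2i. The median pileup was 39.5 and 77 against 20 and 29 fragments.

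The strongest PVT1 region lay 214 kb from MYC (127949159 to 127950635), 0.436 kb past the upper end of LINC02912, a noncoding gene nested in PVT1. Its folds were 9.57 and 12.6 in DMSO against 8.07 and 7.04 in ACSS2i, and its percentiles 99.8 and 99.8 against 99.2 and 99.1. It ranked within the top 1% of peaks in every library, with a pileup of 107 and 191 fragments in DMSO against 58 and 74 in ACSS2i.

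A pair of neighbouring regions 117 kb and 119 kb from MYC (127851431 to 127852824 and 127853945 to 127854896) had high pileups. The first had the highest of PVT1 in each library, shared with the second in DMSO replicate 2, and reached 116 and 218 fragments in DMSO against 61 and 82 in ACSS2i, and the second 99 and 218 against 53 and 76. Their folds were modest, at 5.94 and 6.71 in DMSO against 5.92 and 5.52 in ACSS2i for the first, and 5.06, 6.74, 5.31 and 5.29 in the same order for the second. The local background at this pair was the highest among the 14 PVT1 regions, at 9.08 and 18.1 times the genome background in DMSO and 4.09 and 4.43 times in ACSS2i at the first. Percentiles were nonetheless high, at 98.9, 98.8, 97.9 and 98.3 for the first and 95.3, 98.8, 94.9 and 97.2 for the second. The second region was 1 of 2 among these 14 whose folds overlapped between the groups.

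The other overlap of folds was at 342 kb (128076384 to 128077907), near the far end of PVT1, with folds of 6.89 and 12.6 in DMSO against 7.36 and 6.15 in ACSS2i. Its percentiles were 89.2 and 98.8 in DMSO against 96.4 and 88.8 in ACSS2i, so the groups overlapped in rank as well. The region at 234 kb (127969146 to 127970389) was the single one of the 14 whose mean percentile was higher in ACSS2i, by 0.399, with 96.0 and 97.6 in DMSO against 98.5 and 96.0 in ACSS2i. That difference is far smaller than the gap between the replicates.

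The first PVT1 region in all 4 libraries past the PVT1 start, at 74.5 kb from MYC (127809184 to 127810751), had folds of 6.55 and 9.47 in DMSO against 6.55 and 5.22 in ACSS2i. Its percentiles were 93.6, 97.0, 94.6 and 87.7 in the same order, so the groups overlapped. It lies 15.4 kb inside PVT1 and was called in both libraries in which the PVT1 start was not. At 125 kb (127859564 to 127860356) the folds were 8.17 and 11.4 against 6.11 and 6.59, and at 135 kb (127870225 to 127871508) they were 8.01 and 10.5 against 6.98 and 5.94. At 176 kb (127910994 to 127911968) they were 6.93 and 8.33 against 5.38 and 5.72. All 3 had percentiles above 90 in every library.

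Other PVT1 regions differed more in rank between the groups. The region at 96.5 kb (127831441 to 127832452) had percentiles of 90.6 and 90.8 in DMSO against 60.2 and 72.3 in ACSS2i, a difference of means of −24.4, with folds of 7.47 and 11.1 against 4.56 and 4.77. The regions at 164, 172 and 183 kb had differences of −11.6, −10.1 and −17.2, and in each both ACSS2i percentiles lay below both DMSO percentiles. The region at 141 kb (127875779 to 127877985) had a difference of −4.56, with the groups overlapping. Within this 1 gene body, differences in rank thus ran from near 0 to beyond −20.

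**Figure D3:**
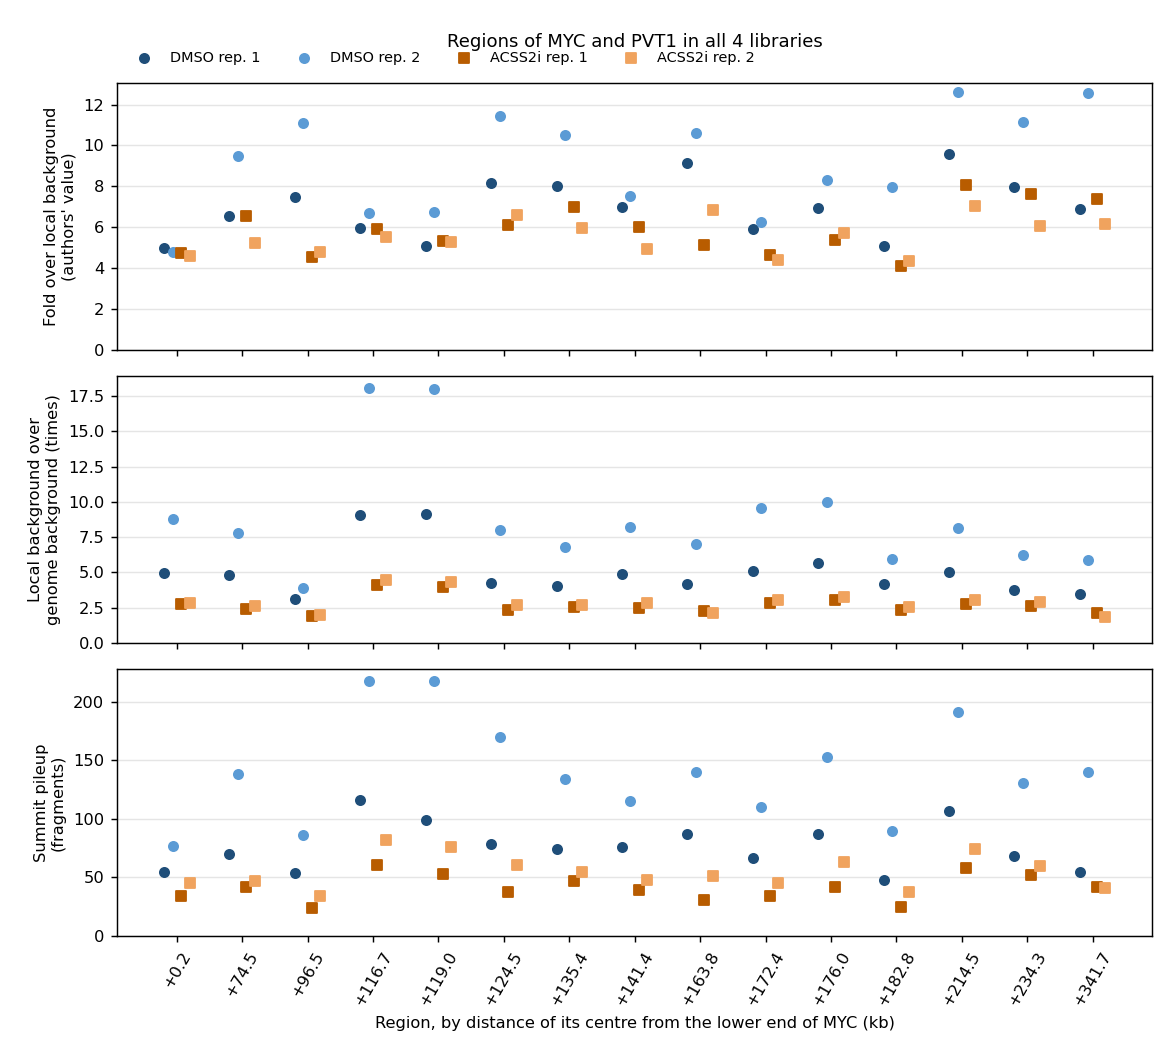
The 15 regions of MYC and PVT1 in all 4 libraries are ordered by distance from the lower end of MYC in kb (x axis). The panels show, from the top, the fold, the local background over the genome background and the summit pileup in fragments, with circles for DMSO and squares for ACSS2i libraries. Folds at the MYC start coincide between 4.61 and 4.99, while its pileup runs from 34 to 77 fragments.

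The DMSO-only regions of PVT1, its start aside, were 5. One lay at 147 kb (127881959 to 127882512), with folds of 5.03 and 6.05 and percentiles of 64.7 and 66.6, the highest lower DMSO percentile among the DMSO-only regions of the whole window. Another at 129 kb (127864148 to 127864577) had folds of 3.5 and 2.76. The other 3 lay together at 281, 283 and 300 kb, with folds from 3.16 to 5.08 in DMSO replicate 1 and from 5.15 to 8.07 in DMSO replicate 2. No region in all 4 libraries lay between 234 kb and 342 kb.

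Just past PVT1, a second block of strong sites followed. In the first 100 kb beyond its upper end, 5 of 5 regions in both DMSO libraries were in all 4. Their lower DMSO percentiles were 79.6 to 99.8, and of genome regions as strong 78.2% (between 70 and 80) to 99.2% (above 90) were in all 4, so this count too is near the background. The strongest of them, 441 kb from MYC (128175804 to 128177615) and inside the noncoding gene LOC124902020, had folds of 8.95 and 12.7 in DMSO against 8.75 and 8.96 in ACSS2i. Its percentiles of 99.8, 99.9, 99.4 and 99.9 gave it the highest minimum over libraries of any region in the window, and both its folds and its ranks overlapped between the groups. Its pileup was 106 and 217 fragments in DMSO against 57 and 82 in ACSS2i, in step with the strongest PVT1 regions.

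The neighbours of that site were less even. The regions at 374 kb (128108869 to 128109404) and 448 kb (128182854 to 128183627) had percentiles from 88.4 to 96.9 over all libraries. The region at 392 kb (128127318 to 128128445) had percentiles of 96.9, 97.7 and 93.8 but 63.0 in ACSS2i replicate 2, with folds of 9.04, 14, 6.89 and 4.33. The region at 433 kb (128167575 to 128168953) had percentiles of 91.2 and 79.6 in DMSO against 25.7 and 68.0 in ACSS2i. At both of these sites the gap between the ACSS2i libraries was wider than the difference of the group means.

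Further out on the PVT1 side the sites were sparser and weaker. More than 100 kb past PVT1, 25 regions had a peak in both DMSO libraries. Of these, 10 (40%) were in all 4, against 42.2% in the genome, and 12 (48%) were DMSO-only, against 33.5%. Their median lower DMSO percentile was 49.5, against 51.4 in the genome. The largest difference in rank among sites with a lower DMSO percentile above 90 was at 1950 kb (129685263 to 129686219), 5.02 kb from the upper end of the noncoding gene CCDC26 on the side of GSDMC, which encodes a gasdermin. Its folds were 8.66 and 12.6 in DMSO against 4.30 and 4.29 in ACSS2i, and its percentiles 96.6 and 97.1 against 55.6 and 61.9. The groups were well apart, with replicates close together. This region was singled out after its values were seen. Of the 2742 regions of the genome in all 4 libraries with a lower DMSO percentile above 90, 57 (2.08%) had a mean percentile lower by as much or more.

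Other sites in all 4 libraries on that side included 1 region within LINC00824 at 765 kb, with percentiles of 55.7, 75.3, 55.1 and 54.4, and 1 at 931 kb (128665925 to 128666842), where they were 76.8 and 83.7 in DMSO against 42.4 and 6.16 in ACSS2i. A site at 1042 kb (128776802 to 128777396) had 82.6, 78.1, 62.8 and 64.0. A region inside GSDMC at 1973 kb (129707693 to 129709048) had 70.7, 75.3, 67.9 and 61.8, with both ACSS2i values just below both DMSO values. A pair of regions lay inside CYRIB, which encodes a regulator of the actin cytoskeleton, at 2204 and 2249 kb. The first had percentiles of 89.8 and 94.6 in DMSO against 32.1 and 77.0 in ACSS2i. The second had 71.4 and 91.2 against 40.3 and 78.7, so its groups overlapped. The DMSO-only regions on this side included those at 505 kb (128240279 to 128240809, folds 6.81 and 8.27), 523 kb (128258518 to 128258845, 5.96 and 8.34) and 779 kb (128514484 to 128515219, 4.99 and 8.81). A region inside CCDC26 at 1892 kb (129627176 to 129627651), with folds of 5.75 and 11.5, was DMSO-only in the full lists and also with lists of equal length.

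On the other side of MYC the nearest site in all 4 libraries was at −40.1 kb (127694862 to 127695774), 4.83 kb from the lower end of CASC11, a noncoding gene that reaches close to the MYC start. Its folds were 5.67 and 11.6 in DMSO against 3.81 and 4.22 in ACSS2i, and its percentiles were 67.2 and 90.1 against 40.4 and 60.8, with no overlap between the groups. A site at −66.8 kb (127668179 to 127669103), at the upper end of the noncoding gene LOC105375754, had folds of 5.44 and 7.52 in DMSO and 5.07 in ACSS2i replicate 2. Its percentile was 65.2 and 73.6 in DMSO and 84.7 in ACSS2i replicate 2, yet it had no peak in ACSS2i replicate 1. The ACSS2i libraries thus differ at this site by the presence of a fairly strong peak.

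The gene desert upstream of MYC held few sites. From the end of PCAT1 to the start of LOC105375754, a stretch of 642 kb that holds the noncoding genes CCAT1, CASC19, CASC21 and CASC8 and the POU5F1 relative POU5F1B, 0 regions were in all 4 libraries. This stretch is known for enhancers that act on MYC in cancers of other tissues. It held 5 regions in both DMSO libraries, of which 3 were DMSO-only. All 5 had a lower DMSO percentile under 40, and regions of the genome between 30 and 40 were DMSO-only in 50.7% and in all 4 libraries in 13.3%, so these counts are near the background. The DMSO-only regions lay at the upper end of CCAT1, with folds of 3.24 and 6.55, and at 2 sites shared by the spans of CASC21 and CASC8, with folds from 4.53 to 6.32. The other 2, at −510 and −257 kb, had a peak in ACSS2i replicate 2, with folds of 2.64 and 3.31.

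Further upstream, 3 of the sites in all 4 libraries lay between −1201 and −1155 kb, among them 1 at the end of LRATD2, a protein-coding gene more than 1 Mb from MYC. In all, the upstream side had 36 regions, 19 of them in both DMSO libraries. Of these 19, 8 (42.1%) were in all 4, against 42.2% in the genome, and 4 (21.1%) were DMSO-only, against 33.5%. The region at the upper end of LRATD2 (126557684 to 126558856) had folds of 7.19 and 7.78 in DMSO against 3.59 and 4.40 in ACSS2i, with percentiles of 93.2 and 89.0 against 29.4 and 74.8. Both ACSS2i values were lower than both DMSO values. At −1201 kb (126534085 to 126535279) the percentiles were 91.9, 73.0, 66.9 and 85.6, so the groups overlapped. At −1301 kb (126433719 to 126434981) they were 69.4 and 69.3 in DMSO against 1.35 and 11.0 in ACSS2i, the largest difference of means among the 38 regions, −63.2. Farther out still, neighbouring sites at −1618 kb (126116530 to 126117512) and −1614 kb (126120605 to 126121805) were in all 4 libraries, 42.3 and 46.4 kb from the nearest gene end, that of the pseudogene KNOP1P5. The first had percentiles of 68.2 and 79.5 in DMSO against 35.4 and 82.7 in ACSS2i, and the second 85 and 86.0 against 51.1 and 87.6. In each, ACSS2i replicate 2 ranked above both DMSO libraries and ACSS2i replicate 1 below them. A region at −1164 kb (126570955 to 126572654), with folds of 5.51 and 9.57, was DMSO-only in the full lists and with lists of equal length.

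Presence in all 4 libraries went with strength in DMSO, in the locus and in the genome. Of regions with a lower DMSO percentile above 90, 16 of 16 in the window were in all 4, against 99.2% in the genome, where 0.0723% were DMSO-only. Between 80 and 90 it was 5 of 5 (92.6%, with 0.758% DMSO-only), and between 70 and 80 it was 7 of 7 (78.2%, with 3.75% DMSO-only). The strongest 28 regions of the locus were thus all called in every library. Between 60 and 70 it was 5 of 11 (58.2%), with 3 DMSO-only (11.4%), and between 50 and 60 it was 3 of 8 (38%), with 2 DMSO-only (22.6%). Between 40 and 50 it was 2 of 9 (24.8%), with 5 DMSO-only (36.9%), and between 30 and 40 it was 0 of 8 (13.3%), with 4 DMSO-only (50.7%). Between 20 and 30 it was 0 of 7 (6.79%), with 6 DMSO-only (65.3%). Below 20, 3 of 3 were DMSO-only, against 76.9% of the genome between 10 and 20 (2.83% in all 4) and 82.2% under 10 (1.86% in all 4). Of the 14 PVT1 regions in all 4 libraries, 11 were in the band above 90.

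**Figure D4:**
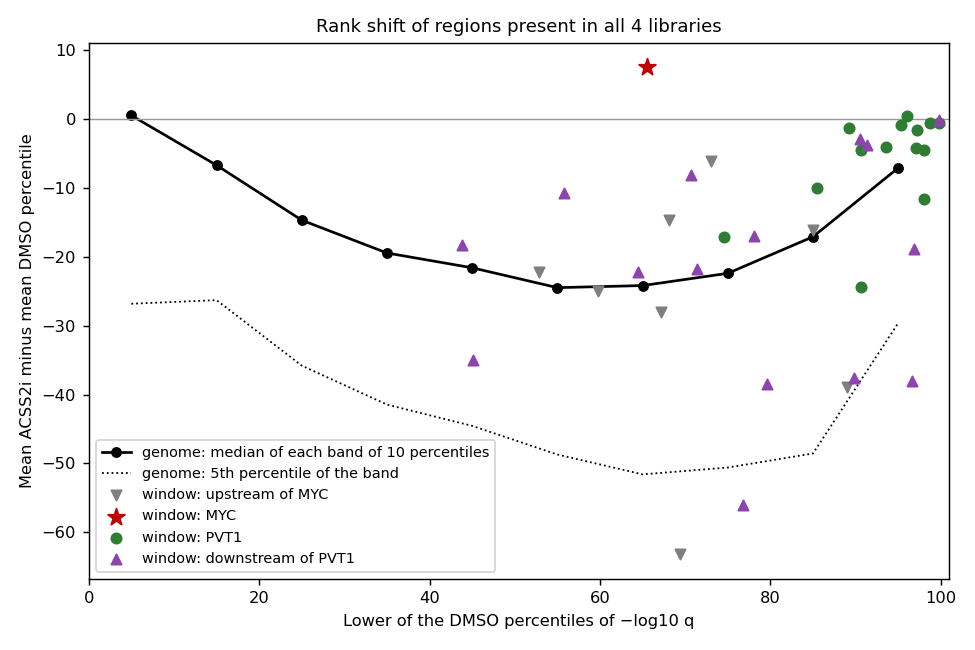
Each symbol is a window region in all 4 libraries, placed by the lower of its DMSO percentiles (x axis) and by its mean ACSS2i minus mean DMSO percentile (y axis). The solid line joins genome medians of bands of 10 percentiles and the dotted line their 5th percentiles. PVT1 regions cluster at the right near 0, the MYC start stands at 7.48 and a few upstream and downstream regions lie below −35.

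Over the 38 regions in all 4 libraries, the median percentile was 90.6 ± 0.204 in DMSO and 71.8 ± 9.85 in ACSS2i (SD of library medians, n = 2 per group), a difference of −18.8 (exact permutation p = 0.333). Over the genome it was 82.3 ± 4.44 against 62.6 ± 6.88, a difference of −19.6, close to that of the locus. The median of the differences per region was −13.2 in the locus against −17.4 in the genome. Neither comparison was matched for strength in DMSO. A lower percentile in ACSS2i is in part set by the shorter lists, as described above. The difference of library medians for the locus was −3.37 with lists of equal length (exact permutation p = 0.667). It was −6.59 within 1 Mb of MYC on each side. It was −10.4 when peaks were ranked by pileup over genome background, an alternative chosen after seeing the data. Leaving out single libraries gave −27.7 to −8.27, the latter without ACSS2i replicate 1. Mean percentile was lower in ACSS2i for 36 of the 38 regions, against 91.4% of the genome, the MYC start and the PVT1 region at 234 kb being the exceptions. Both ACSS2i percentiles lay below both DMSO percentiles in 23 of 38 regions, against 58.1% of the genome, and above them in 0 of 38, against 1.59%. Both ACSS2i folds lay below both DMSO folds in 34 of 38 regions, against 82.2% of the genome.

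Rank differences within PVT1 were near those of other strong regions. The 11 PVT1 regions with a lower DMSO percentile above 90 had a median difference of −4.16, ranging from −24.4 to 0.399. The 2742 genome regions in that band had a median of −7.15, and a 5th percentile of −29.6. The MYC start, at 7.48, stood among genome regions of its band (lower DMSO percentile between 60 and 70) whose median was −24.2. Its groups overlapped, and the difference was 0.782 without DMSO replicate 2. The size of the 7.48 thus rests mostly on the lower rank of the MYC start in that library. The 0.782 still lies above the band median of −24.2, which was computed with every library. How many genome regions of the band lie as high was not counted.

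In DMSO, the genes of the window had peaks at their ends about as often as long noncoding RNA genes of the whole table. In ACSS2i they had them less often, but this rests on 4 and 5 genes of the window. Among these, LRATD2 and LOC105375751 share a peak, and the difference was not tested. The 50 genes of the window were 26 long noncoding RNA genes, 13 pseudogenes, 6 microRNA genes and 5 protein-coding genes, so the types are not matched. A peak lay within 1000 bp of an end for 20% and 26% of them in DMSO and for 8% and 10% in ACSS2i. For long noncoding RNA genes of the whole table, which includes the window, the shares were 21.0% and 25.9% in DMSO and 11.9% and 15.2% in ACSS2i. For protein-coding genes they were 52.6% and 59.9% in DMSO and 32.5% and 40.7% in ACSS2i. In the window, 35 genes had no such peak in any library and 8 had one in both DMSO libraries. The 4 with one in all 4 libraries were MYC, LRATD2, LOC105375751, which shares the LRATD2 peak, and LINC02912. The 3 DMSO-only genes were PVT1, MIR1204, which shares the PVT1 peak, and CCAT1. Of the 3752 long noncoding RNA genes of the whole table with a DMSO peak of this kind in each replicate, 53.2% had one in all 4 and 23.5% were DMSO-only.

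The other genes of the MYC network lie elsewhere in the genome and, with MYC, were examined for their gene ends. Of 14 such genes, 11 had a peak at a gene end in each DMSO replicate, 7 of these in all 4 libraries, and 3 were DMSO-only. Among 10468 protein-coding genes with a peak in each DMSO replicate, 58% had it in all 4 and 18.9% were DMSO-only, so these counts are near the background. Those in all 4 were MYC, its dimer partner MAX, the MAX-binding repressors MXD1, MXD3, MXD4 and MNT, and ZBTB17, a zinc finger factor that binds MYC. The MXD1 peak was among the strongest, with folds of 11.6 and 12 in DMSO against 8.42 and 10.2 in ACSS2i and its lowest percentile, 98.5, in ACSS2i replicate 1.

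The MXD4 peak had folds of 9.81 and 11.5 in DMSO against 9.09 and 5.47 in ACSS2i. The MAX peak had folds of 8.88 and 10.9 in DMSO against 3.62 and 5.52 in ACSS2i, with percentiles of 83.5 and 81.2 against 6.32 and 62.3. MNT had percentiles of 65.4 and 79.2 in DMSO against 74.0 and 63.1 in ACSS2i, which overlap. The DMSO-only genes were MYCL, a MYC paralogue (folds 3.89 and 9.98), the repressor MXI1 (3.32 and 4.76) and MLX, a MAX-like dimer partner (5.19 and 5.82). MLXIP, a partner of MLX, had a peak in ACSS2i replicate 2 alone of the ACSS2i libraries, MGA had one in DMSO replicate 2 alone, and MYCN and MLXIPL had none. Such peaks may be those of a gene nearby.

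At the edges of the window, the first region inside (126095114 to 126095327) was called in DMSO replicate 1 alone (fold 3.46), and the nearest region outside it (125904791 to 125905083) in ACSS2i replicate 2 alone (fold 3.15). The last region inside (129999304 to 130000349) crosses the boundary and was counted. It had folds of 4.27 and 6.42 in DMSO and no ACSS2i peak, and the next one outside (130014751 to 130015579) had folds of 3.77 and 3.86 in DMSO and none in ACSS2i.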

How the data were processed

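Each of the 4 ATAC-seq libraries has its own peak list, and groups follow the treatment label. The submitters' processing notes name Bowtie2, Picard 2.18.26, MACS2 2.1.2 and the build hg38. Caller options, any Tn5 shift, duplicate handling and the filter applied are not stated in the sources used here. Peaks were called per library. The deposited fold is a ratio of the summit to local background. The deposited −log10 p and −log10 q are the caller's p-value and q-value, with −log10 q of at least 2 in every list. The deposited score is the rescaled q-value and was not used, and the deposited summit offset is in bp. Fold and q served only to describe and rank peaks within a list.

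Rows sharing an interval were counted as 1 peak with the values of the strongest summit. Peaks overlapping by 1 bp or more were merged into regions. Pileup (a whole number) and Poisson background were derived from fold and −log10 p. The recomputed −log10 p was within 0.001 of the deposited one at 99.99% of summits or more in each library, and the solver was tested on simulated data. The lowest background of a library was taken as its genome background. It scales with depth only if fragments were extended alike. Gene spans came from RefSeq (GRCh38.p14), which gave no strand for this locus, so gene ends replaced promoters. Groups were compared with two-sided exact permutation tests (scipy 1.17.1), where 2 against 2 allows no p below 0.333. Alternatives are listed in the closing section.

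The window, gene lists and tests were chosen with earlier results of these data known. Regions named by rule are those at MYC and PVT1 ends, the 20 regions in all 4 libraries with the highest lowest percentile, and the 8 strongest of those in both DMSO and no ACSS2i library. Other regions were named after their values were seen. One marker gene of the line is not reported here.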

Additional observations from a re-analysis of the deposited data

How the results depend on the processing

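Lists of equal length (16400 peaks) changed most. The share of peaks in the window then gave a ratio of 0.946 (exact permutation p = 0.667), the reverse of 1.19. DMSO-only regions were 2, regions in the ACSS2i libraries and no DMSO library 1, DMSO-only regions within PVT1 0, and DMSO libraries with a peak at the PVT1 start 0%. The 1 region in the ACSS2i libraries and no DMSO library lay at 1745 kb and was called in all 4 full lists. Its folds there were 4.19 and 6.30 in DMSO against 3.74 and 3.24 in ACSS2i. The MYC start ranked below 16400 in DMSO replicate 2, so its rank difference could not be computed. A window of 1 Mb on each side of MYC held 23 regions in all 4 libraries. Other genes of the window with an end peak in all 4 libraries were 3, against 1 at −log10 q of at least 5 and 5 with 2500 bp around an end. Leaving out each library in turn, DMSO-only regions ranged from 24 to 55, those within PVT1 from 7 to 10, regions in the ACSS2i libraries and no DMSO library from 0 to 6, and regions in all libraries from 38 to 50. Without both the longest and the shortest list, chosen after seeing the data, regions with ACSS2i and no DMSO peak were 10.

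The window peak ratio ranged from 0.447 to 0.654 without single libraries. With the replicate numbers as a block, the ratio of peaks was 0.542 and that of shares 1.19 (exact sign-flip p = 0.5, the smallest possible). No label says that the numbers pair libraries. Deviations of same-numbered libraries correlated at r = 0.166 across 13306 regions, which are not independent replicates, and nothing was called under either fit. A DMSO-only region was not called after ACSS2i, which does not show it to be closed. The part of sequencing depth was not tested.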
